A study of Mus musculus with 9 samples.

Results

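The NRF2, glutathione and antioxidant genes are a set of 35 genes, chosen by name from the known biology of the pathway. They were chosen with earlier results of these data known. Each gene was represented by its brightest probe set among those carrying a single gene symbol, that is, the one with the highest mean over the 9 arrays. A value was obtained for 32 of the 35, out of 18193 genes measured in all. Prdx1, Prdx6 and G6pdx had no probe set with a single symbol here and are not analysed. No filter on low signal was applied, so all 32 measured members were tested.

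Affymetrix MG-430 2.0 arrays were used to read the RNA of 3 mouse cell lines, with 3 arrays per line. Of the lines, 2 came from the trachea of mice aged 3 weeks and do not form tumours, and these mice were Gprc5a wild-type for the first (wild-type line) and Gprc5a-knockout for the second (knockout line). MDA-F471, the tumour line, derives from the lung adenocarcinoma that a female mouse lacking Gprc5a bore 16 months after intraperitoneal injection of the tobacco carcinogen NNK. All lines share the mixed C57/BL6 x sv129 background. The wild-type line carries neither the deletion nor the carcinogen, and the knockout line carries the deletion without the carcinogen. The wild-type genotype is represented by 1 line and the non-tumour knockout genotype by 1, so line and genotype cannot be told apart, and the tumour line differs from the others in organ, carcinogen exposure and the time at which the mouse was killed as well as in tumour origin. The labels do not say whether the arrays of a line came from separate cultures, so the p-values measure the spread between these arrays, which may be technical.

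NRF2, encoded by Nfe2l2, is a transcription factor that is held in the cytoplasm and marked for degradation by its sensor Keap1. Oxidants and electrophiles release it, and with a small Maf protein it then binds antioxidant response elements and raises the genes that make and use glutathione, thioredoxin and NADPH. In airway epithelium these enzymes deal with inhaled oxidants and with the reactive products of tobacco carcinogens, and in lung cancers the pathway is often switched on permanently.

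The arrays of a line resembled each other more than they resembled those of the other lines, with Pearson's r over all probe sets but the controls of 0.990 to 0.996 within lines and 0.913 to 0.975 between them. Gprc5a, the deleted gene, was lower in the knockout line than in the wild-type line. The log2 difference was -1.41 ± 0.11 SE (limma adjusted p = 1.52e-07). Its mean log2 signal was 8.57 on the wild-type arrays, 7.16 on the knockout arrays and 7.02 on the tumour arrays. The labelled cell types were checked on markers. The basal cell keratin Krt5 read 14.45 to 14.47 log2 on the wild-type arrays and 14.28 to 14.45 on the knockout arrays. On the tumour arrays it read 8.24 to 8.58. Of 9 measured basal markers, 2 were called lower in the knockout than in the wild-type line. These were Pdpn (-3.72 ± 0.10) and Trp63 (-1.36 ± 0.12). The epithelial adhesion molecule Epcam read at least 11.52 on every array, but other markers of its list of 10 differed. In the knockout line Krt19 was called lower (-4.90 ± 0.13) and Krt18 higher (2.55 ± 0.13) than in the wild-type line. Between tumour and wild-type lines 5 of the 10 were called higher and 2 lower. Of 9 measured markers of alveolar type II cells, Sftpc and Nkx2-1 read 5.06 to 5.93 in all 3 lines, close to the background level defined below. Others read higher, with line means of 9.52 to 9.64 for Abca3 and 7.68 to 7.99 for Sftpb. None of the 9 lay at or under background on all arrays of a line. By itself this does not show that they are expressed, since several read lower than Gprc5a in the lines that lack that gene. Sftpd was the 1 marker of that list called, higher in the tumour line by 1.38 ± 0.11 against the knockout line and 1.81 ± 0.11 against the wild-type line. Of 9 measured leukocyte markers, the defining Ptprc read at most 4.77, Cd14 was called higher in the tumour line against both others (3.06 ± 0.12 and 3.48 ± 0.12), and Cd68 was called lower there against the wild-type line (-1.11 ± 0.11). Background was set at a log2 signal of 5.15, the 95th percentile over 27 probe sets for bacterial control RNA, whose highest value was 5.96. Gprc5a lay above both values on every array, including the arrays of the lines that lack it. A signal above background thus does not by itself show expression. The 3' to 5' difference of the beta-actin controls, a sign of RNA quality, was 0.75 to 1.78 log2 on the wild-type, 0.90 to 0.95 on the knockout and 0.37 to 0.74 on the tumour arrays. Its difference had an exact permutation p of 0.1 for tumour against either other line, the smallest that 3 against 3 arrays can give. The same measure of the Gapdh controls had an exact permutation p of 0.7 between tumour and knockout arrays and 0.3 between tumour and wild-type arrays. The part of RNA quality in the results below was not tested.

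The sequence through which NRF2 acts is short, and it is shown here for members whose signal differed between lines and for Gclm, so that the measurements can be read beside it. The promoter windows are those of RefSeq on GRCm38.p6, 250 bases before to 50 after each annotated start, and 27 of the 32 measured members had at least 1. The core of the antioxidant response element was searched as TGACNNNGC on both strands. It was found for 10 of the 27 members, against 14.0% of all 27025 genes in the table and 12.4% of all 32851 windows. The 10 were Gclm, Gsta3, Gstm5, Me1, Mgst1, Nfe2l2, Pgd, Sod1, Srxn1 and Txnrd1. In the stretches that follow, given 5′ to 3′ on the gene's strand, the match is in capitals, and it reads in reverse where it lies on the opposite strand.
Gsta3, chr1:21240454-21240482, plus strand: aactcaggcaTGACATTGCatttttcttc
Mgst1, chr6:138140461-138140489, plus strand: gcggggcttgGCACGGTCAggaggcgggg
Txnrd1, chr10:82859104-82859132, plus strand: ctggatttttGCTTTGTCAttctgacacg
Me1, chr9:86695902-86695930, minus strand: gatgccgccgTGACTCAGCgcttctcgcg
Gclm, chr3:122245413-122245441, plus strand: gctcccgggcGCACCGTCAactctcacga

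Counted from the annotated start, the match begins at -121 in Gsta3 and at -134 in Gclm. It begins at -92 from a start of Txnrd1, at -56 from a start of Mgst1 and at -6 from a start of Me1. The match of Me1 also holds TGACTCA, the site of AP-1 factors, which is the reverse complement of TGAGTCA and occurs in 5.2% of all windows. A match is a description of letters and does not show that the site is used. For comparison, the 250 bases before the single annotated start are given for Gsta3, which has a match, and for Gpx2 and Gstm2, whose windows hold none. These 3 genes had large differences between the tracheal lines, Gsta3 upwards in the knockout line and the others downwards. Direction did not follow the match throughout, since Me1, which has a match, was called lower in the knockout line (-1.86 ± 0.15). A link between match and direction was not tested.
Gsta3, chr1:21240335-21240584, plus strand: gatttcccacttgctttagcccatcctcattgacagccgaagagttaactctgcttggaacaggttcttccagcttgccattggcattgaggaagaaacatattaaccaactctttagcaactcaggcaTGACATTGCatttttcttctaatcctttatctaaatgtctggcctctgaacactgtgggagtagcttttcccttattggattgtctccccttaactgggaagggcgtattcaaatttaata
Gpx2, chr12:76795555-76795804, minus strand: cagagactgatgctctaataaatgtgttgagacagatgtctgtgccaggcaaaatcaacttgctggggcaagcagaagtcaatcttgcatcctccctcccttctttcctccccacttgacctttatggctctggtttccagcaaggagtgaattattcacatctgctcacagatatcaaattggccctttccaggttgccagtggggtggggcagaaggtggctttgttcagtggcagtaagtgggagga
Gstm2, chr3:107986421-107986670, minus strand: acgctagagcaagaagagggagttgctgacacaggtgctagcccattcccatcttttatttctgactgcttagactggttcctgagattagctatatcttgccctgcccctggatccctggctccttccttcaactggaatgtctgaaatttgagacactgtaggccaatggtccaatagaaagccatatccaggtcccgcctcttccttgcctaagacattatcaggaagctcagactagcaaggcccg

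At 2-fold, members were called in both directions in every comparison. A gene was called when it differed by at least 2-fold and limma gave it an adjusted p (Benjamini-Hochberg, 18193 genes) under 0.05. Between knockout and wild-type lines, 7 of the 32 members were called, 3 higher and 4 lower, where 4.88% of all genes were called, 1.90% higher and 2.98% lower. With quantile normalization, or without knockout replicate 1, Gclc and Gpx4 passed 2-fold as well, which made 5 higher; quantile normalization moved the share of higher calls from 42.9% to 55.6%. Between tumour and knockout lines 12 members were called, 5 higher and 7 lower, where 14.2% of all genes were called, 7.79% higher and 6.38% lower. Between tumour and wild-type lines 12 were called, 4 higher and 8 lower, where 16.6% of all genes were called, 8.09% higher and 8.46% lower. Every gene that differed by 2-fold also passed the p threshold, so the fold threshold alone decided these calls. The 3 comparisons share arrays, so their counts are not independent. The members were chosen with earlier results of these data known, which limits what their counts beside all genes can show.

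At any fold, 17 members had an adjusted p under 0.05 by limma between the tracheal lines (26.4% of all genes), 26 between tumour and knockout lines (44.5%) and 25 between tumour and wild-type lines (47.3%). The arrays did not overlap for 22, 28 and 25 members in that order, against 39.1%, 52.3% and 54.7% of all genes. The median log2 difference of the 32 members was 0.19 between the tracheal lines, 0.14 between tumour and knockout lines and 0.01 between tumour and wild-type lines, and over all genes it was -0.0042, 2.73e-05 and 0.01. Differences were above 0 for 20, 18 and 16 members in that order and below 0 for 12, 14 and 16. Over all genes 8938, 9097 and 9343 of 18193 were above 0. In at least 1 comparison 16 of the 32 members were called, 2 of them in all 3, Gsta3 and Gstm1. The other 16 had no difference above 0.97 log2 in size. Members read highest in the knockout line for 14 genes, in the tumour line for 12 and in the wild-type line for 6. For the counts over the 3 comparisons together and for the highest line, no share over all genes was computed. They describe the members only and do not show whether the set is unusual. The SD of a member over the 3 arrays of a line was 0.13 at the median and ranged from 0.03 to 0.83.

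**Figure D1:**
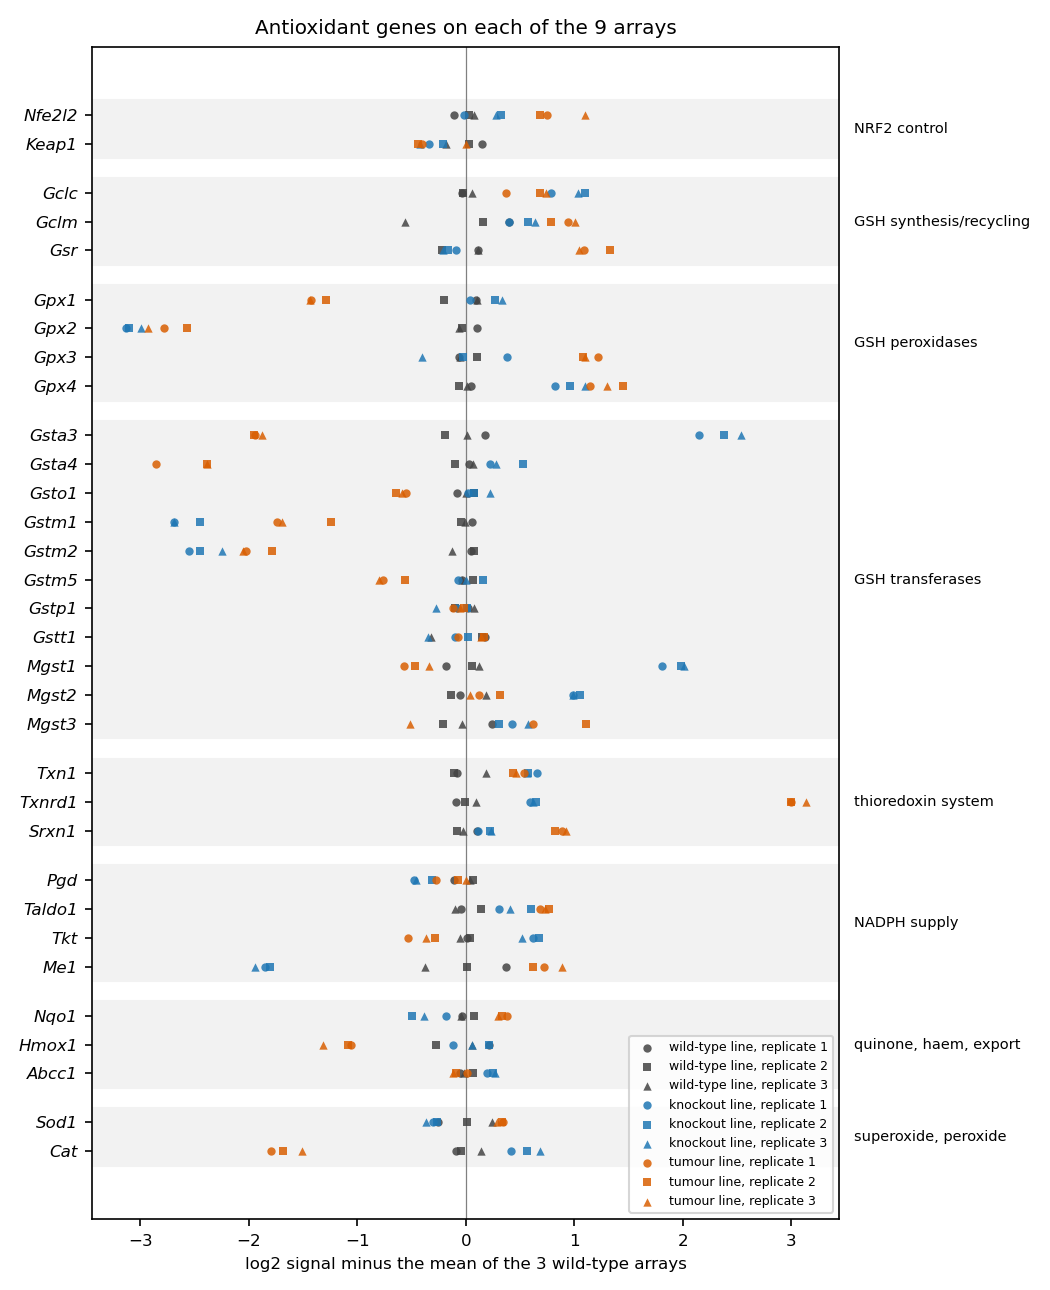
Each of the 32 measured members is a row, grouped by role, and each point is 1 of the 9 arrays, placed by its log2 signal minus the mean of the 3 wild-type arrays. The knockout points of Gsta3 and Mgst1 lie to the right of 0 and those of Gpx2, Gstm1, Gstm2 and Me1 to the left, while the tumour points of Txnrd1 lie near 3.

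Neither NRF2 nor its sensor was called in any comparison. Nfe2l2, which encodes NRF2, had log2 signals of 11.58, 11.72 and 11.77 in the wild-type line, 11.67, 12.01 and 11.97 on the knockout arrays and 12.44, 12.37 and 12.79 on the tumour arrays. The tumour arrays thus lay above all others. The tumour line exceeded the knockout line by 0.65 ± 0.12 SE (limma adjusted p = 0.000468) and the wild-type line by 0.84 ± 0.12 (adjusted p = 3.68e-05), both past the p threshold but under 2-fold. Keap1 read 9.78 to 10.12 on the wild-type, 9.54 to 9.76 on the knockout and 9.52 to 9.97 on the tumour arrays, and its largest difference, -0.32 for knockout against wild-type, had an adjusted p of 0.0795. NRF2 is controlled mainly through the stability of its protein, which these arrays do not measure.

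Glutathione is made in 2 steps, of which the first, by glutamate-cysteine ligase, sets the rate. Gclc, its catalytic subunit, read 10.14, 10.15 and 10.24 on the wild-type arrays, 10.96, 11.27 and 11.21 on the knockout arrays and 10.55, 10.86 and 10.91 on the tumour arrays. The 3 lines did not overlap, with the knockout line highest. The difference between knockout and wild-type lines was 0.97 ± 0.11 (adjusted p = 1.25e-05), or 1.96-fold, just short of a call. Its second probe set differed by 0.99 there when tested on its own.

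Gclm, the modifier subunit of the same enzyme, read 10.03, 9.80 and 9.08 in the wild-type line, where replicate 3 stood low, 10.03 to 10.28 in the knockout line and 10.42 to 10.64 in the tumour line. It was not called in any comparison (tumour against wild-type 0.91 ± 0.18, adjusted p = 0.000596); without wild-type replicate 1 that difference was 1.11 and was called. Gsr, glutathione reductase, returns oxidised glutathione to its reduced form with NADPH. It read 9.37 to 9.70 in the wild-type, 9.38 to 9.50 in the knockout and 10.64 to 10.92 in the tumour line. The tumour line was 2.48-fold above the knockout line (log2 difference 1.31 ± 0.11, adjusted p = 1.40e-07) and 2.23-fold above the wild-type line (1.15 ± 0.11, adjusted p = 4.68e-07), and the tracheal lines overlapped.

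The glutathione peroxidases, which reduce peroxides with glutathione, each had a pattern of their own. Gpx2, a peroxidase of epithelia, read 10.76, 10.63 and 10.59 in the wild-type line, 7.53, 7.55 and 7.66 in the knockout line and 7.88, 8.09 and 7.73 in the tumour line. Both lines of Gprc5a-knockout origin thus lay far below the wild-type line. The fall was 8.45-fold in the knockout line (-3.08 ± 0.10, adjusted p = 2.13e-11) and 6.77-fold in the tumour line (-2.76 ± 0.10, adjusted p = 1.19e-11), the former the largest fall of any member between the tracheal lines. Between tumour and knockout lines it differed by 0.32 ± 0.10 and was not called.

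Gpx1, the abundant peroxidase of the cytosol, was lower in the tumour line. It read 11.98 to 12.29 in the wild-type, 12.23 to 12.52 in the knockout and 10.75 to 10.89 in the tumour line, with differences of -1.60 ± 0.11 against the knockout line (adjusted p = 1.27e-08) and -1.38 ± 0.11 against the wild-type line (adjusted p = 5.32e-08). Gpx3, a secreted peroxidase, was higher there. It read 7.08 to 7.25, 6.73 to 7.52 and 8.22 to 8.35 on wild-type, knockout and tumour arrays, and the tumour line was 2.22-fold above the knockout line (1.15 ± 0.15, adjusted p = 1.28e-05); without knockout replicate 3 this difference was 0.95 and no longer reached 2-fold.

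Gpx4, which reduces lipid peroxides within membranes and protects cells from ferroptosis, read 10.28, 10.16 and 10.23 in the wild-type line, 11.04, 11.19 and 11.33 in the knockout line and 11.37, 11.68 and 11.52 in the tumour line. The lines did not overlap, and both knockout-derived lines lay above the wild-type line. The tumour line was 2.46-fold above the wild-type line (1.30 ± 0.10, adjusted p = 5.75e-08), and the knockout line 1.95-fold (0.96 ± 0.10, adjusted p = 5.70e-06), which fell short of 2-fold. Its second probe set, tested on its own, differed by 1.12 in the latter comparison and was called.

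Glutathione transferases join glutathione to electrophiles so that these can be exported, and they held 5 of the 7 calls between the tracheal lines. Of the 11, 3 were called higher in the knockout line, 2 were called lower there and 6 were not called. Gsta3, an alpha-class transferase, read 9.14, 8.77 and 8.97 in the wild-type line, 11.11, 11.34 and 11.50 in the knockout line and 7.02, 7.01 and 7.07 in the tumour line. The knockout line was thus highest and the tumour line lowest, without overlap. Gsta3 was 5.13-fold higher in the knockout than in the wild-type line (2.36 ± 0.12, adjusted p = 1.19e-09), the largest rise of any member there, and 19.5-fold below the knockout line in the tumour line (-4.28 ± 0.12, adjusted p = 3.99e-13), the largest difference of any member in any comparison. The tumour line also lay 3.80-fold below the wild-type line (-1.92 ± 0.12, adjusted p = 2.34e-09). Its second probe set differed by 2.43, -4.02 and -1.59 in the same order.

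Mgst1, a membrane-bound transferase with peroxidase activity, followed Gsta3 in part. It read 11.16, 11.39 and 11.46 in the wild-type line, 13.14, 13.32 and 13.35 in the knockout line and 10.77, 10.87 and 10.99 in the tumour line. It was 3.82-fold higher in the knockout than in the wild-type line (1.93 ± 0.11, adjusted p = 3.63e-09) and 5.26-fold below the knockout line in the tumour line (-2.39 ± 0.11, adjusted p = 9.39e-11), and was not called between tumour and wild-type lines (-0.46 ± 0.11). A second Mgst1 probe set stayed at or under background on all 9 arrays and differed by 0.03 and 0.01, so the result rests on the brighter one. With the mean of both probe sets the rise in the knockout line was 0.98 and was not called.

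Mgst2, a relative of Mgst1, read 9.60 to 9.93 in the wild-type, 10.72 to 10.79 in the knockout and 9.78 to 10.05 in the tumour line. The rise in the knockout line was 2.01-fold (1.01 ± 0.11, adjusted p = 4.00e-06). This call sat on the threshold: the difference was 0.996 with arrays centred on the median, 0.98 without wild-type replicate 1, 0.94 without wild-type replicate 2 and 0.99 without knockout replicate 2, and in each of these it was not called. Gsta4, which handles lipid aldehydes such as 4-hydroxynonenal, did not pass the test between the tracheal lines (0.34 ± 0.13, adjusted p = 0.0681). It read 12.71 to 12.88 in the wild-type, 13.03 to 13.34 in the knockout and 9.95 to 10.43 in the tumour line, and the fall in the tumour line was 7.37-fold against the knockout line (-2.88 ± 0.13, adjusted p = 1.13e-10) and 5.81-fold against the wild-type line (-2.54 ± 0.13, adjusted p = 3.60e-10).

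The mu-class transferases Gstm1 and Gstm2 fell in the knockout line. Gstm1 read 10.51, 10.41 and 10.45 in the wild-type line, 7.77, 8.01 and 7.77 in the knockout line and 8.72, 9.21 and 8.77 in the tumour line. The lines did not overlap, with the wild-type line highest and the tumour line in between. Against the wild-type line Gstm1 differed by -2.61 ± 0.12 in the knockout line (adjusted p = 9.13e-10) and by -1.56 ± 0.12 in the tumour line (adjusted p = 5.55e-08), and the tumour line lay above the knockout line by 1.05 ± 0.12 (adjusted p = 4.72e-06). The last of these was lost with quantile normalization (0.99), with the mean of the probe sets (0.82), with _x_at and _s_at probe sets left out (0.94) and without tumour replicate 2 (0.89). The brightest Gstm1 probe set is of the _x_at kind, which can bind related transcripts; its 3 others differed by -2.54, -2.16 and -1.99 in the knockout line and each was called.

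Gstm2 read 10.27, 10.29 and 10.09 in the wild-type line, 7.67, 7.77 and 7.97 in the knockout line and 8.19, 8.44 and 8.17 in the tumour line. It fell 5.33-fold in the knockout line (-2.41 ± 0.11, adjusted p = 5.09e-10) and 3.87-fold in the tumour line (-1.95 ± 0.11, adjusted p = 1.02e-09), both against the wild-type line. In the RefSeq gene table Gstm1 and Gstm2 are neighbours on chromosome 3, in a cluster that runs Gstm5, Gstm7, Gstm6, Gstm3, Gstm2, Gstm1, Gstm4. Mu-class genes are close in sequence, so their probe sets may share signal and the gene-by-gene values are uncertain to that extent. The cluster did not move as a block. Between knockout and wild-type lines Gstm5 differed by 0.03, Gstm7 by -0.02 and Gstm3 by -0.23 and Gstm6 by -0.84, none of them called, while Gstm4 was called higher (1.24 ± 0.12, adjusted p = 2.21e-06). Gstm5 read 9.61 to 9.71, 9.57 to 9.80 and 8.84 to 9.08 on wild-type, knockout and tumour arrays.

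The other transferases differed by less than 2-fold. Gstp1, the pi-class transferase that is abundant in many epithelia, read 12.49 to 12.85 over all 9 arrays, and all 3 pairs of lines overlapped. The 95% interval of its difference was -0.32 to 0.10 for knockout against wild-type, -0.16 to 0.26 for tumour against knockout and -0.27 to 0.15 for tumour against wild-type. Gsto1, of the omega class, read 14.39 to 14.70 in the tracheal lines and 13.83 to 13.93 in the tumour line (tumour against knockout -0.70 ± 0.09). Gstt1, of the theta class, read 6.51 to 7.04 over all arrays. Mgst3 had the widest spread of any member, at 9.41, 9.90 and 8.28 on the tumour arrays, so that its interval for tumour against knockout ran from -0.64 to 0.57.

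**Figure D2:**
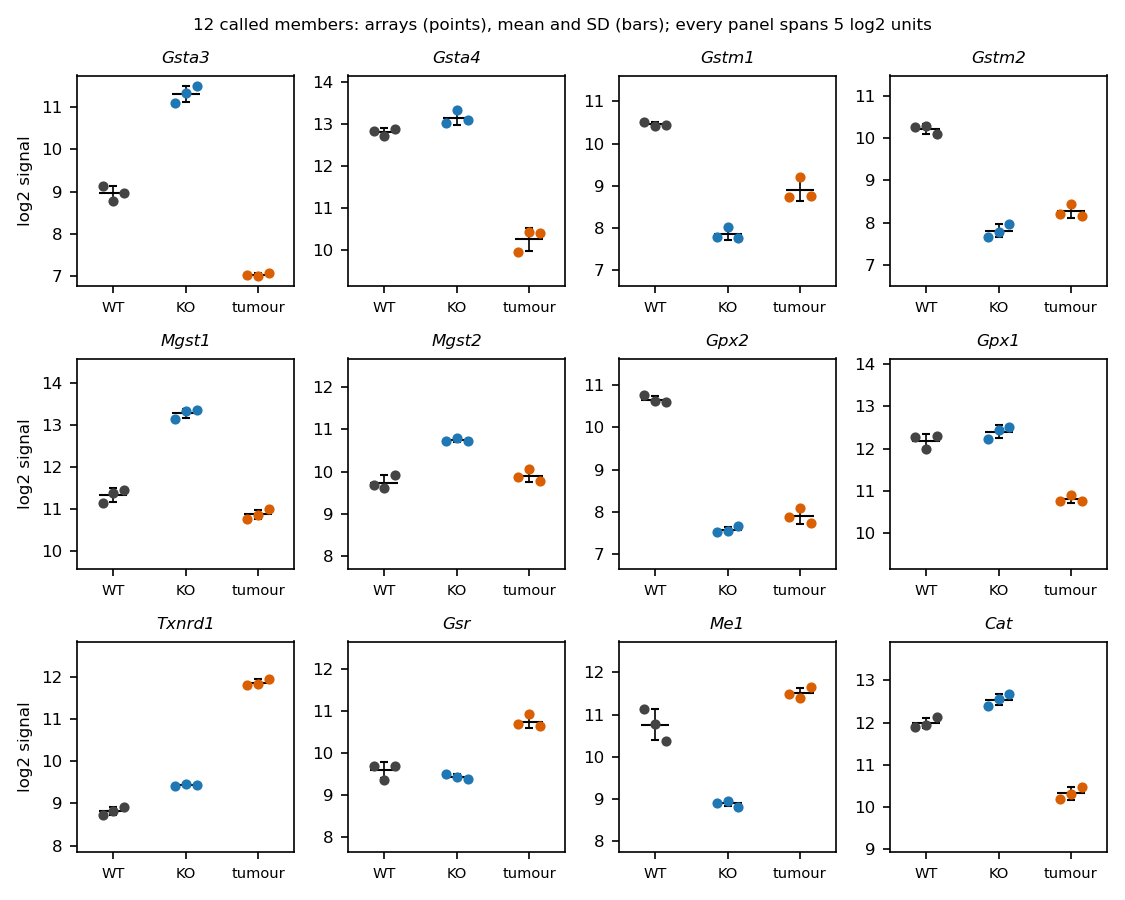
The log2 signal of 12 called members is shown for each array (points) in the wild-type (WT), knockout (KO) and tumour lines, with the mean and SD of 3 arrays as bars, and every panel spans 5 log2 units. Gsta3, Mgst1 and Mgst2 were highest in the knockout line, Gstm1, Gstm2 and Gpx2 in the wild-type line, and Txnrd1, Gsr and Me1 in the tumour line. Me1 was not called between tumour and wild-type lines (0.74 ± 0.15).

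Thioredoxin reduces disulphides in proteins and is kept reduced by thioredoxin reductase with NADPH. Txnrd1, the cytosolic reductase, read 8.73, 8.81 and 8.91 in the wild-type line, 9.41, 9.47 and 9.44 in the knockout line and 11.82, 11.82 and 11.95 in the tumour line. The 3 lines did not overlap and the tumour line stood far above both others. It was 8.25-fold above the wild-type line (3.04 ± 0.09, adjusted p = 6.59e-13) and 5.36-fold above the knockout line (2.42 ± 0.09, adjusted p = 1.13e-11), the former the largest rise of any member in any comparison. Between the tracheal lines the difference was 0.62 ± 0.09 (adjusted p = 8.11e-05), under 2-fold. Its dimmer probe sets gave smaller rises for tumour against wild-type, 1.91 and 1.21, and were called as well, although the dimmest lay at or under background on 7 of the 9 arrays.

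Txn1, thioredoxin itself, read 13.18 to 13.48 in the wild-type, 13.86 to 13.95 in the knockout and 13.73 to 13.83 in the tumour line. The knockout line exceeded the wild-type line by 0.60 ± 0.10 (adjusted p = 0.000267) and the tumour line exceeded it by 0.48 ± 0.10, both under 2-fold. Srxn1, sulfiredoxin, restores peroxiredoxins that have been over-oxidised. It read 8.13 to 8.31, 8.32 to 8.44 and 9.03 to 9.13 on wild-type, knockout and tumour arrays, and the tumour line differed from the wild-type line by 0.88 ± 0.09 (adjusted p = 7.62e-07), short of 2-fold. Its other probe sets, from brighter to dimmer, differed by 0.86, -0.04 and 0.65 there.

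Both systems run on NADPH. Me1, malic enzyme, makes NADPH from malate in the cytosol and had the widest swing of this group. It read 11.13, 10.77 and 10.38 in the wild-type line, 8.91, 8.96 and 8.82 in the knockout line and 11.48, 11.38 and 11.64 in the tumour line. The knockout line thus lay below both others. Me1 was 3.64-fold lower in the knockout than in the wild-type line (-1.86 ± 0.15, adjusted p = 2.20e-07) and 6.09-fold above the knockout line in the tumour line (2.61 ± 0.15, adjusted p = 1.42e-09). Between tumour and wild-type lines the difference was 0.74 ± 0.15, not called, and a second probe set differed by -0.21 there.

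Tkt, transketolase, belongs to the non-oxidative branch of the pentose phosphate pathway. It read 13.26 to 13.35, 13.83 to 13.99 and 12.77 to 13.02 on wild-type, knockout and tumour arrays. The fall from knockout to tumour line was 2.00-fold (95% interval of the log2 difference -1.20 to -0.80, adjusted p = 3.75e-07), at the threshold, and the call was lost with arrays centred on the median (-0.98), without knockout replicate 1 (-0.99) or 2 (-0.96) and without tumour replicate 1 (-0.93). Its 2 other probe sets differed by -1.06 and -2.00 there and were both called. Taldo1, transaldolase of the same branch, and Pgd, which makes NADPH in the oxidative branch, were not called in any comparison. Taldo1 read 9.97 to 10.21, 10.37 to 10.67 and 10.75 to 10.84, and Pgd 11.74 to 11.91, 11.37 to 11.53 and 11.57 to 11.85, on wild-type, knockout and tumour arrays.

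Nqo1, a quinone reductase often used as a readout of NRF2, had a signal close to background in every line. It read 5.31, 5.42 and 5.30 in the wild-type line, 5.16, 4.84 and 4.96 in the knockout line and 5.72, 5.67 and 5.64 in the tumour line, against a background level of 5.15. Of its 9 values 2 lay at or under that level and none exceeded the highest bacterial control value of 5.96. The difference between tumour and knockout lines was 0.69 ± 0.10 (adjusted p = 2.58e-05), under 2-fold. It is measured by a single probe set here, and no other member had an array at or under background.

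Hmox1, haem oxygenase, which breaks haem down to biliverdin, iron and carbon monoxide, was lower in the tumour line. It read 9.16 to 9.65 in the wild-type, 9.31 to 9.65 in the knockout and 8.12 to 8.37 in the tumour line, with differences of -1.20 ± 0.13 against the knockout line (adjusted p = 1.71e-06) and -1.15 ± 0.13 against the wild-type line (adjusted p = 2.31e-06). Abcc1, a pump that exports glutathione conjugates, read 10.47 to 10.86 over all arrays and was not called.

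Cat, catalase, which splits hydrogen peroxide in peroxisomes, read 11.89, 11.94 and 12.12 in the wild-type line, 12.40, 12.55 and 12.67 in the knockout line and 10.19, 10.30 and 10.48 in the tumour line. The lines did not overlap and the tumour line was lowest. The fall was 4.66-fold against the knockout line (-2.22 ± 0.11, adjusted p = 2.59e-10) and 3.17-fold against the wild-type line (-1.66 ± 0.11, adjusted p = 5.35e-09). Sod1, the cytosolic superoxide dismutase whose product catalase and the peroxidases remove, read 10.89 to 11.38, 10.78 to 10.88 and 11.43 to 11.49 on wild-type, knockout and tumour arrays, with 0.63 ± 0.11 for tumour against knockout (adjusted p = 0.000236), and was not called in any comparison.

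**Figure D3:**
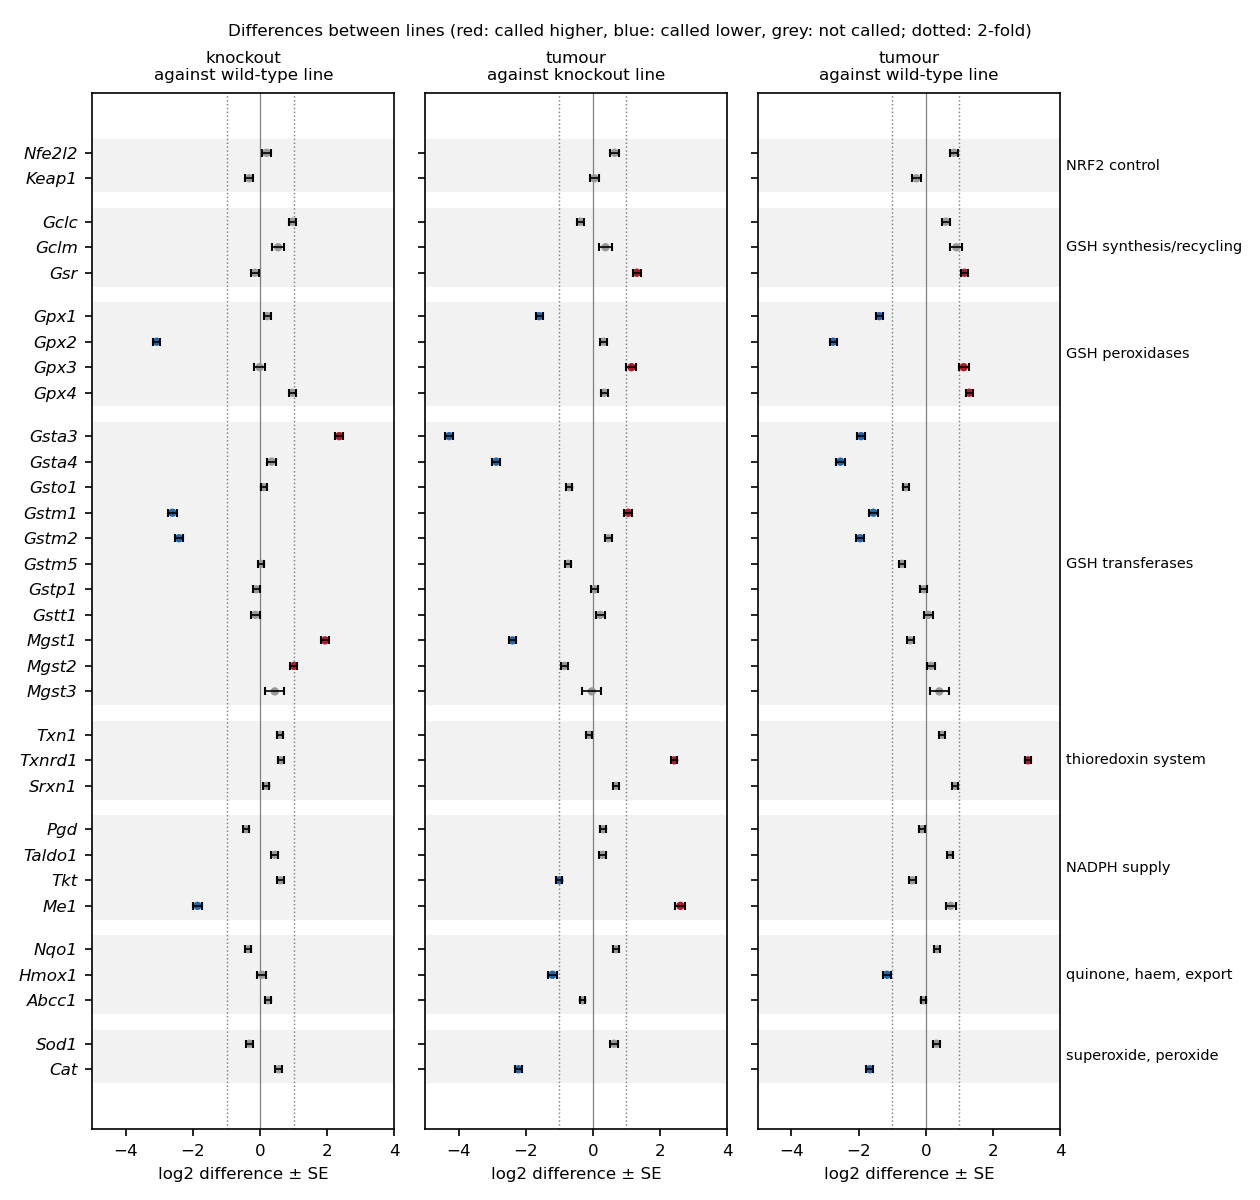
Each panel gives, for 1 comparison, the log2 difference of every measured member with its SE from limma; red points were called higher, blue points lower and grey points not called, and dotted lines mark 2-fold. The calls lie on both sides of 0 in each panel, 3 and 4, 5 and 7, and 4 and 8.

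The members were also read through their other probe sets, 31 in all, each tested on its own. Of those belonging to called members, 5 of 6 were called the same way between knockout and wild-type lines, 8 of 12 between tumour and knockout lines and 9 of 9 between tumour and wild-type lines, and none was called the opposite way. Over all members, 4, 4 and 10 of the 31 had the opposite sign to the brightest probe set, 1 of them of a called member. The exceptions were the background-level Mgst1 probe set and, for tumour against knockout, the 3 dimmer Gstm1 probe sets, which kept the sign without reaching 2-fold.

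**Figure D4:**
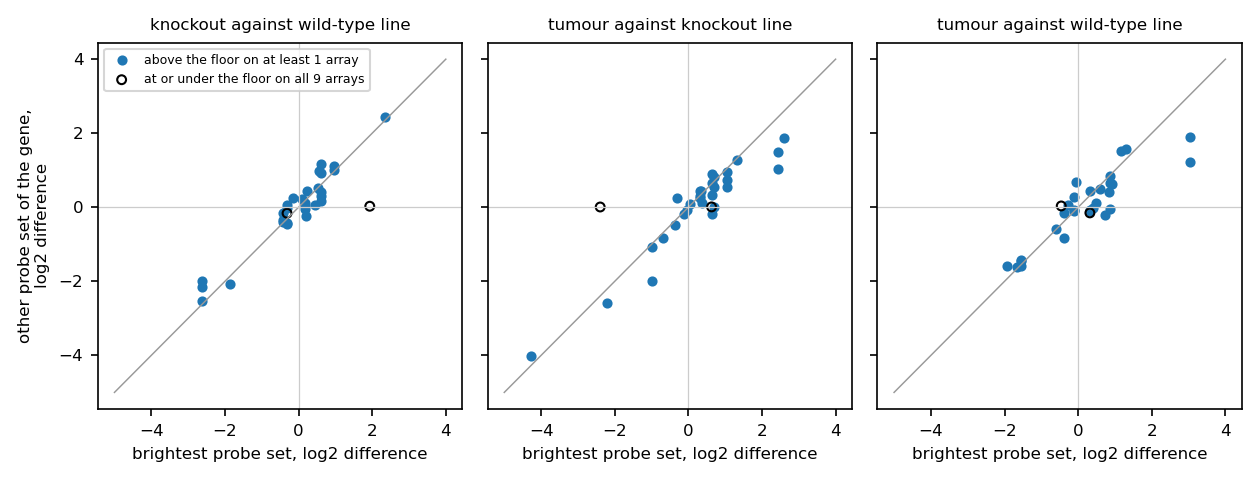
For each of the 3 comparisons, the log2 difference of every further probe set of a member (y axis) is set against that of the gene's brightest probe set (x axis), with the line of equality; open circles were at or under the background level of 5.15 on all 9 arrays. Points with a difference beyond 2-fold by the brightest probe set lie on the same side of 0 by the other, apart from the open circle of Mgst1 near 0.

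A further 120 genes of the pathway were listed by role, also with earlier results of these data known, and 112 were measured. Between knockout and wild-type lines 11 were called higher and 3 lower, or 12.5%. Between tumour and knockout lines 19 were higher and 15 lower (30.4%), and between tumour and wild-type lines 24 higher and 15 lower (34.8%). The shares among all genes are those given above, 4.88%, 14.2% and 16.6%. The medians of the 112 were 0.01, 0.02 and 0.11 in the same order.

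Of the genes that control NRF2, 0 of 15 were called by limma between the tracheal lines, where 2 were higher and 6 lower at an unadjusted p under 0.05. In the tumour line Maff, a small Maf partner, was higher than in the knockout line by 2.07 ± 0.11 and the autophagy receptor Sqstm1, which binds Keap1, by 1.16 ± 0.12, and so was Palb2 (1.42 ± 0.11). The related factor Nfe2l3 differed by -1.43 ± 0.13 between tumour and wild-type lines. In the list on glutathione supply, Slc7a11, which imports cystine for glutathione synthesis, read 5.75 to 6.27 in the wild-type, 6.62 to 7.40 in the knockout and 7.38 to 8.20 in the tumour line. It rose in the knockout line by 1.07 ± 0.22 (adjusted p = 0.00175) and in the tumour line by 1.74 ± 0.22 (adjusted p = 7.55e-06), each against the wild-type line. Oplah, which recycles oxoproline, was at least 2.36-fold higher in the knockout than in the wild-type line, whose arrays were under background.

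Among the further transferases and peroxidases, Gstt3 rose by 2.55 ± 0.11 in the knockout line and Gsta2 fell by 1.26 there. Gsta2 read 8.34 to 8.74 in the wild-type, 6.95 to 7.48 in the knockout and 4.86 to 5.59 in the tumour line, where 2 of 3 arrays lay under background, so the size of its fall there is not given. Gpx8, a peroxidase of the endoplasmic reticulum, differed by -1.85 ± 0.11 between tumour and knockout lines, and Ptges, a prostaglandin synthase that uses glutathione, by 2.96 ± 0.13. In the thioredoxin list, 7 of 22 were called lower and 1 higher in the tumour against the knockout line. Txnip, which binds and inhibits thioredoxin, read 11.24 to 11.69 in the knockout and 7.35 to 7.70 in the tumour line, a fall of 15.9-fold (-3.99 ± 0.13, adjusted p = 2.33e-12). Msrb3, a methionine sulfoxide reductase, differed by -3.16 ± 0.10 and the selenoprotein Selenow by -2.70 ± 0.12, while the mitochondrial reductase Txnrd2 was higher by 1.67 ± 0.10. Between the tracheal lines 2 of this list were called, the mitochondrial peroxiredoxin Prdx3 (1.11 ± 0.11) and Sesn3 (-1.02 ± 0.10).

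Of 18 further genes of NADPH supply, 3 were called higher and 0 lower by limma in the knockout than in the wild-type line (5 and 6 at an unadjusted p under 0.05), namely Rpe (1.44 ± 0.16), Nnt (1.31 ± 0.12) and Idh1 (1.08 ± 0.10). In the tumour against the knockout line 4 were called higher and 0 lower by limma (9 and 4 at an unadjusted p under 0.05), led by Mthfd2 of mitochondrial folate metabolism (2.18 ± 0.12), H6pd (1.69 ± 0.11) and Mthfd1l (1.19 ± 0.10). The list of export and other NRF2 targets held 9 higher and 3 lower of 25 in the tumour against the knockout line. Abcg2, a drug efflux pump, read 5.16 to 5.50 in the wild-type, 5.49 to 5.51 in the knockout and 9.87 to 10.24 in the tumour line. Its rise over the knockout line was 23.7-fold (4.56 ± 0.11, limma adjusted p = 1.41e-13). The size of this rise is uncertain, since the tracheal arrays lay just above the background level of 5.15 and under the highest bacterial control value of 5.96. The export pump Abcc3 rose by 2.66 ± 0.13 and the aldo-keto reductase Akr1b8 by 2.62 ± 0.11, whereas Aldh3a1, an aldehyde dehydrogenase, differed by -3.94 ± 0.14, Cbr3 by -2.06 ± 0.12 and the epoxide hydrolase Ephx1 by -1.58 ± 0.10. Between the tracheal lines Aldh3a1 (1.96 ± 0.14), Ephx1 (1.77 ± 0.10) and Akr1b8 (1.36 ± 0.11) were higher and Pir lower (-1.02 ± 0.10) in the knockout line.

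**Figure D5:**
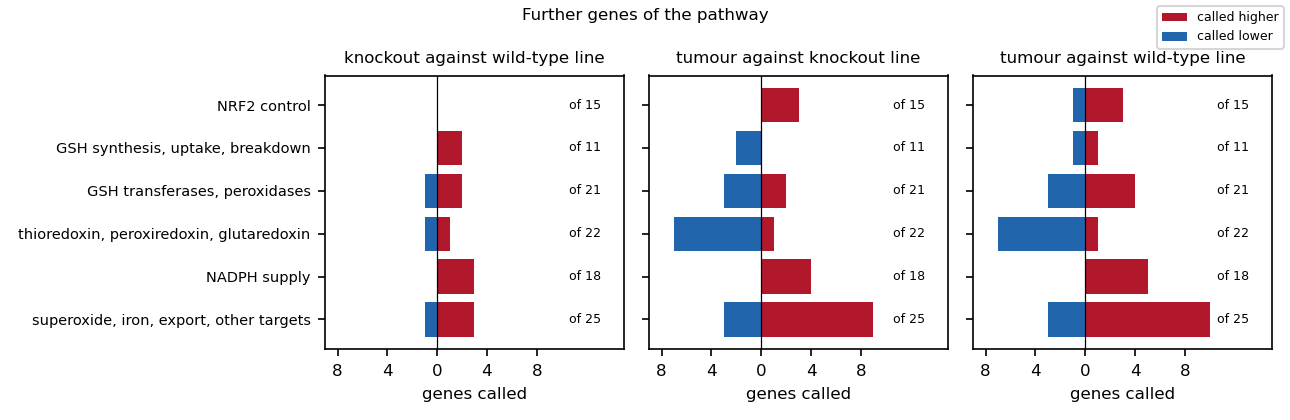
Bars give, for each of 6 lists of further pathway genes and each comparison, how many genes were called higher (red, right) or lower (blue, left), with the number measured at the right. The longest bars are the 10 and 9 genes of the export and other targets list called higher in the tumour line and the 7 genes of the thioredoxin list called lower there.

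Some markers of airway secretory cells, which are rich in detoxifying enzymes, also differed between the lines. Of 10 markers, 1 was called higher in the knockout against the wild-type line, and 3 were called lower in the tumour against the knockout line. Their summed log2 signal was 68.2 to 68.6 on the wild-type, 73.7 to 76.1 on the knockout and 58.9 to 60.3 on the tumour arrays. The called markers were Aldh1a1, Cbr2 and Cyp2f2, which carried most of the change in the sum. The other 7 were not called, and in each line 3 of the 10 lay at or under background on all arrays. Aldh1a1, the 1 called between the tracheal lines (4.38 ± 0.16), read 6.10 to 6.65, 10.55 to 10.90 and 8.18 to 8.73 on wild-type, knockout and tumour arrays, so its tumour arrays lay above the wild-type ones, unlike those of Gsta3. Cbr2 read 11.69 to 11.93, 12.55 to 12.80 and 5.56 to 5.82 in that order, the order of Gsta3. Cyp2f2 differed by 0.25 ± 0.22 between the tracheal lines and by -5.55 ± 0.22 between tumour and knockout lines, while the defining club cell secretoglobin Scgb1a1 lay at or under 5.12 on every array, below background. Basal cell markers summed to 106.7 to 108.1, 102.0 to 102.4 and 65.5 to 66.3 in the same order of lines. Of the 9, 2 were called lower in the knockout against the wild-type line and 5 in the tumour against the knockout line. The part of either marker list in the values of the antioxidant genes was not tested.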

How the data were processed

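Total RNA was column-purified with a DNase step and turned into biotin-labelled cRNA, per the labels' protocols. The deposited values are log2 signals, 1 per array for each of 45101 probe sets; how they were corrected for background, summarized and normalized is not given in the sources used here. Array medians lay between 6.28 and 6.34. Arrays give no counts, so their number limits the precision.

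Probe sets were named through the platform annotation: 34945 carried 1 gene symbol, 932 several and 9160 none, and 64 were controls. Of those with 1 symbol, 34741 were matched to the RefSeq gene table by Entrez ID. The brightest single-symbol probe set stood for each of 18193 genes. One limma 3.58.1 model (lmFit and eBayes, R 4.3.3) was fitted to all 9 arrays, leaving 6 residual degrees of freedom; p-values are two-sided, and differences are given with limma's moderated SE. The fit was tested on simulated data. The groups follow the sample titles. Arrays with the same replicate number did not deviate together, so they were not paired.

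The members and lists were chosen with earlier results of these data known. All 35 members were to be named, and of the further lists up to 3 called genes per direction, list and comparison; the mu-class neighbours Gstm3, Gstm5, Gstm6 and Gstm7 were named together for their position. The background level was chosen after seeing the data. Alternatives covered the normalization, a filter that drops the dimmest 40% of probe sets, averaged probe sets, probe set kind, replicate block, arrays in the fit, variance trend, fold threshold and each array left out.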

Additional observations from a re-analysis of the deposited data

How the results depend on the processing

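Every gene that reached 2-fold also had a limma adjusted p under 0.05, so the calls turned on the fold threshold. For knockout against wild-type, the members called higher went from 3 to 5 with quantile normalization, 8 at 1.5-fold and 11 with no fold threshold, the further pathway genes called lower from 3 to 1 with quantile normalization, 5 with the mean of probe sets, 11 at 1.5-fold and 18 with no fold threshold, and those called higher from 11 to 22 with no fold threshold. For tumour against knockout, members called higher went from 5 to 9 at 1.5-fold and 14 with no fold threshold, members called lower from 7 to 12 with no fold threshold, and further pathway genes called higher from 19 to 29 and 40 and lower from 15 to 36. For tumour against wild-type, members called higher went from 4 to 10 and 13, and further pathway genes called higher from 24 to 37 and 44 and lower from 15 to 31. Over all genes the 1.5-fold and absent thresholds gave 869 and 1861 higher and 1309 and 2944 lower for knockout against wild-type, 2661 and 4335 higher and 2220 and 3768 lower for tumour against knockout, and 2632 and 4360 higher and 2754 and 4254 lower for tumour against wild-type, where the 2-fold counts were 345, 543, 1417, 1161, 1472 and 1540. Leaving out 1 array at a time gave 2 to 5 members higher for knockout against wild-type, the 5 without knockout replicate 1. The members called lower in that comparison stayed at 4 at 1.5-fold and gained only Pgd and Nqo1 with no fold threshold. Higher calls of members thus outnumbered lower ones there at both settings. Quantile normalization moved the share of higher calls among called further pathway genes from 78.6% to 91.7% for knockout against wild-type.

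The replicate numbers did not pair the arrays: same-numbered arrays had correlations of deviations from -0.142 to 0.119. With the replicate block the counts of calls were the same as without it, 3 and 4, 5 and 7, and 4 and 8 members, since the design is balanced, the differences are the same in both fits and every 2-fold gene passed in both; at any fold, 4853 instead of 4805 genes had an adjusted p under 0.05 for knockout against wild-type. Of the members' called differences, 1 turned its sign: the second Mgst1 probe set, under background, differed by 0.0077 for tumour against knockout. Of differences that were not called, 4, 3 and 10 other probe sets in the 3 comparisons and 16 values under the other settings had another sign. Without the dimmest 40% of probe sets 31 members remained. Signal near background limits what can be said of Nqo1, and 3 arrays per line limit the precision of every value.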
